A study of Rattus norvegicus with 20 samples.

Results

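The 20 liver arrays of this series were divided by how much skeletal muscle messenger RNA they carried, and the 8 arrays with high muscle signal were compared with the other 12. The muscle score of an array is the mean log2 signal of 5 genes: Acta1 (the actin of skeletal muscle thin filaments), Myl11 (a regulatory light chain of fast myosin), Tnnt3 (fast troponin T), Myh3 (embryonic myosin heavy chain) and Myh8 (perinatal myosin heavy chain). Each gene was read from its brightest probe set that names a single gene. An array was called high when its score lay over 2 log2 units above that of the lowest array, and low otherwise. The arrays were thus selected on their measured muscle signal, and the split is not one of the study's own groups.

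The study measured liver messenger RNA at postnatal day 4 on Affymetrix rat arrays, in Wistar Han rats (Crl:WI (Han)). Dams, obtained at 11 to 12 weeks of age, were gavaged daily with corn oil alone or with PBDE-47, a flame retardant of the polybrominated diphenyl ether class, from gestation day 6 to postnatal day 4. The 4 groups of 5 arrays were vehicle and 0.1, 15 and 50 mg/kg per day. The labels give the sex of every sample as female and do not say whether a liver came from a dam or from her offspring. Nothing in them says that replicate arrays stand for different animals or litters. The p-values therefore measure only how much these samples varied, and part of that variation may be technical.

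Skeletal muscle contracts when calcium released from the sarcoplasmic reticulum binds troponin on the thin filament and lets myosin pull on actin. During development and after birth its fibres replace embryonic and perinatal myosin heavy chains with the slow and fast adult forms. Hepatocytes are not known to make these contractile proteins, while many genes of glucose and lipid use are active in both tissues.

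The scores ran from 3.86 to 10.43. The lowest was the 15 mg/kg replicate 1 array and the highest was 15 mg/kg replicate 3. Among the 12 low arrays the median was 4.01 and the highest 5.43. Among the 8 high arrays the lowest was 6.49, the median 8.93 and the highest 10.43. The array just inside the threshold, 50 mg/kg replicate 3, lay 2.63 above the lowest array. The array just outside, 15 mg/kg replicate 5, lay 1.56 above it, and 50 mg/kg replicate 5 lay 1.30 above it. The scores of the high arrays spread over nearly 4 log2 units, so the high class was a range of muscle content and not a single level.

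**Figure D1:**
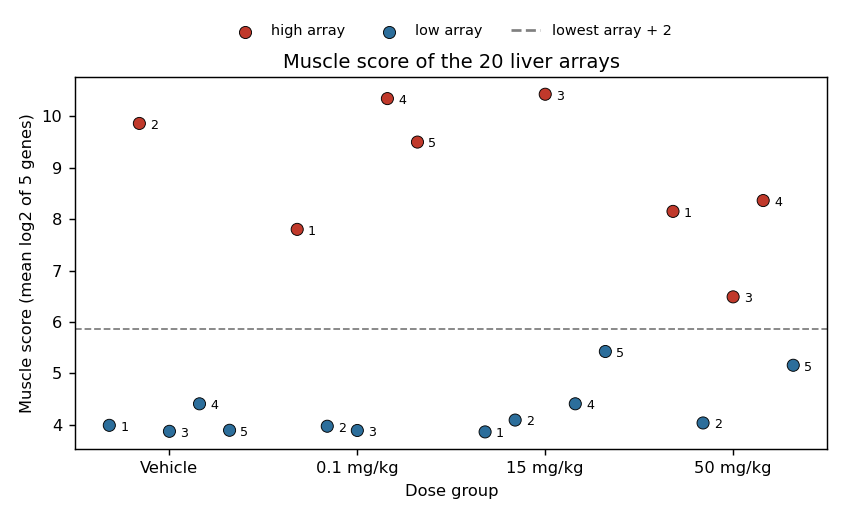
Muscle score (mean log2 signal of 5 genes, vertical axis) of each array by dose group (horizontal axis), with the replicate number beside each point. The dashed line lies 2 log2 units above the lowest array, and 8 arrays lie above it, with at least 1 in every dose group.

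High arrays were present in every dose group. There was 1 among the 5 vehicle arrays (replicate 2), 3 at 0.1 mg/kg (replicates 1, 4 and 5), 1 at 15 mg/kg (replicate 3) and 3 at 50 mg/kg (replicates 1, 3 and 4). An exact permutation test of the number of high arrays per group gave p = 0.444. This p does not show that the doses are alike, since each group holds 5 arrays. RNA quality measures overlapped between the classes. The 3' minus 5' difference of the beta-actin control probe sets ran from 1.22 to 2.43 on the high arrays (median 1.91) and from 1.39 to 2.43 on the low arrays (median 1.94). Array medians over all probe sets were between 5.60 and 5.65 on all 20 arrays.

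The tissue label was checked first. Alb, the serum albumin of hepatocytes, was at 14.76 to 14.80 on the high arrays and 14.73 to 14.82 on the low arrays, and Afp, the fetal albumin relative, at 14.26 to 14.31 and 14.21 to 14.34. Values this bright lie near the top of the scale, where differences are compressed. The Y-linked genes Uty and Eif2s3y were bright on every array, at 8.65 to 9.20 and 8.79 to 9.48, although the label of every sample is female. Their differences between the classes were 0.08 and 0.01 log2 units (SE 0.07 for both).

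The upstream sequences of score genes are shown because these genes were high together on the same arrays. Of the 5 genes, 4 have an entry in the RefSeq promoter table (build GRCr8). Each sequence below is the 250 bases before the annotated start, read 5′ to 3′ on the strand of the gene. Capitals mark matches to 5 motifs: the CArG box bound by serum response factor, the MEF2 site, CANNTG (the E-box bound by myogenic bHLH factors), CATTCC (the M-CAT element) and TATAAA. All but TATAAA were searched on both strands. Acta1 lies at chr19:68784195-68784444 on the minus strand, Myl11 at chr1:191260039-191260288 on the plus strand and Myh3 at chr10:52268935-52269184 on the plus strand.
Acta1: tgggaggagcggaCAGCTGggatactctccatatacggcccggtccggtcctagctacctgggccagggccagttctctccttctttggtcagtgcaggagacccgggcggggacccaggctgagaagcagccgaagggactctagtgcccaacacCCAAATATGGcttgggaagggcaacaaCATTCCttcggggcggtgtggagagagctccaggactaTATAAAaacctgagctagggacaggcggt
Myl11: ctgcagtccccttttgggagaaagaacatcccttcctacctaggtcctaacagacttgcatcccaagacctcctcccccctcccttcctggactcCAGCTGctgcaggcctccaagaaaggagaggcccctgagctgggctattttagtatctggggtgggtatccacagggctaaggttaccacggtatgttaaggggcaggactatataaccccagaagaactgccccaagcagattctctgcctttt
Myh3: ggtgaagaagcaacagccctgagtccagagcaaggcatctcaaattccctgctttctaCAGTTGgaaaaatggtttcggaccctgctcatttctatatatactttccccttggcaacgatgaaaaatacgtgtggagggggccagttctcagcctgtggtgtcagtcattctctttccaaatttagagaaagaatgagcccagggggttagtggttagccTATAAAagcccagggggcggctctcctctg
The Acta1 window held a CArG box 94 bases before the start, a CATTCC at 67, a TATAAA at 29 and a CANNTG at 237. Myl11 held a CANNTG at 155, and Myh3 a CANNTG at 192 and a TATAAA at 30. The Myh8 window held none of the 5. Over 33469 promoters, a window of this length held a CArG box in 1.5%, a MEF2 site in 2.96%, CANNTG in 65.5%, CATTCC in 12.1% and TATAAA in 8.06%. A match describes the letters of the window and not the binding of a factor.

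The 5 genes that define the score were high on the same 8 arrays. Acta1 was at 2.72, 3.39 and 6.91 (lowest, median and highest) on the low arrays and at 8.62, 11.36 and 12.57 on the high arrays, a difference of 7.28 log2 units or 155-fold with dose group as a covariate. Myl11 ran from 4.31 to 5.79 (median 4.55) on the low arrays and from 7.95 to 11.86 (median 10.30) on the high arrays. Tnnt3 ran from 3.61 to 5.29 and from 5.98 to 10.20. Since these values chose the classes, they carry no test. The low class was not free of muscle RNA: Acta1 was at 6.91 on 50 mg/kg replicate 5 and 6.87 on 15 mg/kg replicate 5, and at or below 4.70 on the other 10 low arrays. Log2 values near 2 to 4 hold mostly background on these arrays, so folds from that level are understated.

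Both developmental myosin heavy chains followed the score, but embryonic myosin did so with a different order of arrays. Myh8 ran from 3.74 to 4.72 (median 3.93) on the low arrays and from 5.26 to 9.52 (median 7.68) on the high arrays, with its highest value on the array of the highest score. Myh3 ran from 3.99 to 4.59 (median 4.24) and from 4.63 to 8.38 (median 7.12). Its highest value, 8.38, was on 50 mg/kg replicate 1, which ranked 6 of 8 by score, where Myh8 was at 6.18. On 15 mg/kg replicate 3, ranked 1, Myh3 was at 8.07.

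**Figure D2:**
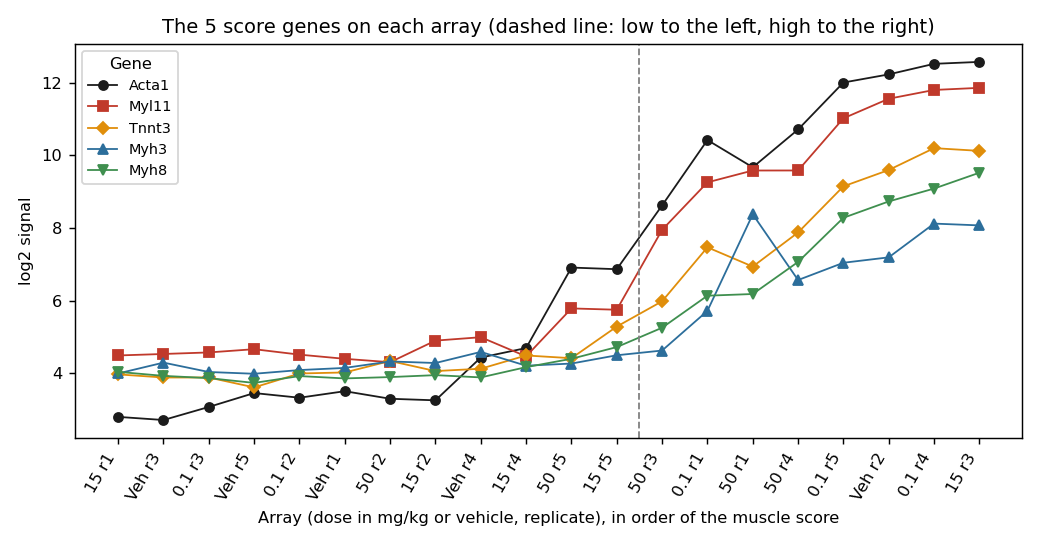
Log2 signal (vertical axis) of the 5 score genes on each of the 20 arrays, ordered by muscle score (horizontal axis). The dashed line separates the 12 low arrays from the 8 high arrays, and Myh3 reaches 8.38 on 50 mg/kg replicate 1, out of the order of the other 4 genes.

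Beyond these 5, genes of the contractile and energy apparatus of skeletal muscle were higher on the high arrays. Without the score genes, 100 genes of the muscle lists were measured, of which 48 were over 1 log2 unit higher on the high arrays, against 0.668% of all 14217 genes (1 probe set per gene, the score and list genes included). The median difference of the 100 was 0.93, and that of all genes was -0.01. For 34 of the 100 every high array lay above every low array, against 0.38% of all genes. The classes were made from muscle genes, so these figures are descriptions of what the split holds, and no p-value is given for a muscle list gene.

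In the list of fast fibre genes, mostly of the thin and thick filaments, 6 of 13 were over 1 log2 unit higher. The list also holds Casq1, Atp2a1 and Pvalb, which are not filament genes. Casq1 (3.66) and Atp2a1 (1.60) were among the 6. Myl1, the essential light chain of fast myosin, was at 2.84, 3.63 and 6.54 on the low arrays and 8.51, 10.70 and 12.03 on the high arrays, a difference of 6.86. Myh2, the myosin heavy chain of fast IIA fibres, ran from 2.97 to 4.16 and from 5.75 to 10.59, a difference of 5.42. Tnnc2 and Tnni2, the calcium-binding and inhibitory subunits of fast troponin, differed by 4.34 and 3.89. The classes did not overlap for any of these 4 genes. Myh4, the myosin heavy chain of the fastest fibres, was at 2.38 to 2.73 on all 20 arrays. The probe set of Myh1, the myosin heavy chain of fast IIX fibres, was bright at 10.05 to 11.02 on all 20. That range held even on arrays where Myh2 was near background, and what this probe set reads was not tested. Myh4 and Myh1 were named after their values were seen. Tpm1, a tropomyosin, was read in this list from its brightest probe set, which differed by -0.005. Its other probe sets differed by 4.34, 3.01, 1.62, 0.48, 0.00 and -0.08.

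Of 13 slow fibre genes, 11 were over 1 log2 unit higher, and the median difference of this list was 2.44. Most are filament genes, but the list also holds Atp2a2 and Casq2, which are not. Myoz2, a calcineurin-binding Z-disc protein of slow fibres and heart, differed by 4.19. Mybpc1, the slow form of myosin-binding protein C, differed by 3.63. Myh7, the slow myosin heavy chain shared with the ventricle, ran from 3.15 to 3.76 on the low arrays and from 4.16 to 8.53 on the high arrays, a difference of 3.53. Myl2, the regulatory light chain that works with it, ran from 3.42 to 4.14 and from 4.62 to 8.96, a difference of 3.52.

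Of 25 Z-disc, titin and scaffold genes, 14 were over 1 log2 unit higher, with a list median of 1.22. Ttn, the giant spring protein titin, ran from 3.92 to 4.63 on the low arrays and from 5.44 to 9.51 on the high arrays, a difference of 4.01. Neb, which sets thin filament length, differed by 3.68, and Klhl41, which stabilizes nebulin, by 3.33. Neb has other probe sets, which differed by 1.73 and 0.15.

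Of 18 genes of muscle energy supply, 9 were over 1 log2 unit higher. Cox8b and Cox6a2, muscle forms of cytochrome c oxidase subunits, differed by 4.76 and 3.89. Ckm and Ckmt2, the cytosolic and mitochondrial creatine kinases of muscle, differed by 4.18 and 4.09, and Eno3, the muscle enolase, by 2.13. Of 24 respiratory genes used by all tissues, 0 were called in the limma fit (2 at an unadjusted p under 0.05), and their median difference was 0.04.

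Of 21 genes of excitation and calcium release, 5 were over 1 log2 unit higher, with a list median of 0.29. Sln, the inhibitor of the sarcoplasmic calcium pump, differed by 3.25, and Ryr1, the calcium release channel, by 1.33. Casq1, which stores calcium in the reticulum of fast fibres, differed by 3.66 and was counted in the fast fibre list above. Casq1 ran from 3.27 to 4.15 on the low arrays and from 4.77 to 8.79 on the high arrays. Sln ran from 4.32 to 5.33 and from 5.96 to 9.63.

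Of 11 determination factors and satellite cell genes, 4 were over 1 log2 unit higher. Myf6, a myogenic bHLH factor of maturing fibres, ran from 2.53 to 3.00 on the low arrays and from 2.86 to 6.06 on the high arrays, a difference of 1.64. Myog, the factor that drives myoblast differentiation, ran from 3.95 to 4.52 and from 4.27 to 5.71, a difference of 0.94, and was at 5.71 on both 50 mg/kg replicate 1 and 15 mg/kg replicate 3. Des, the muscle intermediate filament, differed by 1.82 and Cav3, the muscle caveolin, by 1.69. The classes overlapped for each of these 4. Mef2c, a transcription factor of muscle and other lineages, was at 6.55 to 7.31 on the low arrays and 7.38 to 8.50 on the high arrays, a difference of 0.97.

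With the 5 score genes counted, 53 of 105 muscle list genes were more than 1 log2 unit higher. Over these 53, the brightest high array was 0.1 mg/kg replicate 4 for 33, 15 mg/kg replicate 3 for 18, vehicle replicate 2 for 1 and 50 mg/kg replicate 1 for 1, which was Myh3. At a level over 1.5 log2 units above the median of the low arrays, 50 mg/kg replicate 3 held 13 of the 105 muscle genes and 15 mg/kg replicate 3 and 0.1 mg/kg replicate 4 held 55 each.

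**Figure D3:**
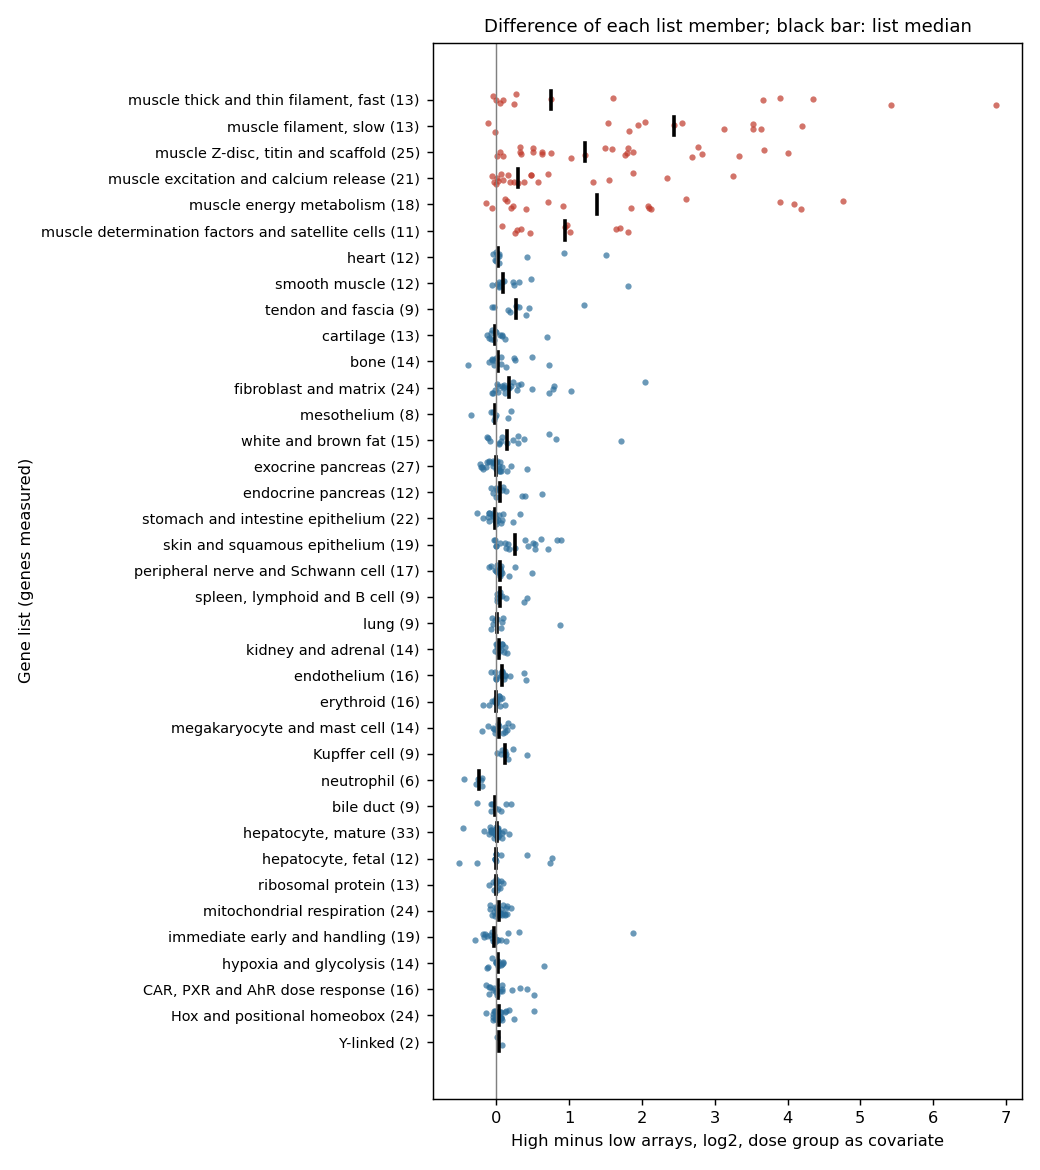
Difference between high and low arrays in log2 units (horizontal axis, dose group as covariate) for each measured gene of 37 lists (vertical axis, with the number of genes), muscle lists in red and all others in blue. Black bars are list medians, which run from 0.29 to 2.44 in the muscle lists and from -0.24 to 0.27 in the others.

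What else separated the classes was tested across all 31042 probe sets that are not array controls, with limma and dose group as a covariate. Of these, 229 were higher on the high arrays (0.738%) and 5 were lower (0.0161%) at an adjusted p under 0.05, 234 in all (0.754%). Of the 30880 probe sets outside the muscle lists, 147 were higher (0.476%). The called probe sets with a single gene symbol stood for 167 genes, of which 97 were outside the muscle lists. Only 8 of those 97 were in any other list. The counts over all probe sets include the score and muscle list genes, and for those they are a description. A p-value here, also for a gene outside the muscle lists, states how closely the gene followed a split made from muscle genes. It says nothing about dose. For a gene that muscle makes, a low p is a description of the split and not separate support.

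The 20 genes with the largest differences outside the muscle lists differed by 1.5 to 3.92 log2 units, with limma adjusted p between 1.49e-05 and 0.0365. Many of them are known from muscle, and for those the p describes the split. Each of the 20 was read from its called probe set with the largest difference, which was not always its brightest. Atp1b4, a muscle protein related to the beta subunit of the sodium pump, was at 2.54, 2.79 and 3.44 on the low arrays and 3.84, 6.12 and 8.12 on the high arrays, a difference of 3.92 (SE 0.41). Pdlim5, a PDZ and LIM protein of the Z-disc, ran from 3.42 to 4.13 and from 4.41 to 8.16, a difference of 2.83 (SE 0.37). Mustn1, a nuclear protein of developing muscle and skeleton, ran from 4.61 to 5.38 and from 5.53 to 7.81, a difference of 1.81 (SE 0.19). The classes did not overlap for these 3 genes.

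The other 17 are given with their log2 differences in parentheses and, for most, what they are known for. Synpo2 (2.18), Fhl1 (2.12), Nexn (2.1) and Cmya5 (1.59) are bound to actin, the Z-disc or costameres. Sypl2 (1.62) is a protein of the triad membranes, and Dhrs7c (1.52) is an enzyme of the sarcoplasmic reticulum. Ppp1r3a (1.89) targets a phosphatase to muscle glycogen, and Fitm1 (1.80) is the lipid droplet protein of skeletal muscle. Rbm24 (1.70) regulates muscle splicing, and Klhl31 (1.61) and Smtnl1 (1.56) are expressed in striated and smooth muscle. Hspb1 (1.88) is a small heat shock protein and Car3 (1.72) is carbonic anhydrase III of muscle, fat and liver. Fndc3c1 (2.20), Mlf1 (2.05), Sh3bgr (1.77) and Art3 (1.5) were the others. Probe sets of a gene did not always behave alike. Pdlim5 and Rbm24 have 3 other probe sets each, which differed by -0.18 to 0.08. The brightest probe set of a gene was among these others for Pdlim5 (-0.18), Rbm24 (0.00), Fhl1 (1.63) and Sypl2 (0.57). The other probe sets differed by 0.49, 0.09 and 0.00 for Synpo2, by 1.63 and -0.12 for Fhl1, by 0.57 for Sypl2, by -0.19 for Klhl31 and by 0.77 for Car3.

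Some of these calls were lost with 1 array left out. Vehicle replicate 2 and 15 mg/kg replicate 3 are each the only high array of their dose group. Without it, that dose group no longer informs the difference. Without vehicle replicate 2 the adjusted p was 0.0601 for Mlf1, 0.0598 for Ppp1r3a and 0.0614 for Fitm1 (differences 1.76, 1.62 and 1.55). Without 15 mg/kg replicate 3 it was 0.0619, 0.0619 and 0.0629 (differences 1.78, 1.61 and 1.56). In that fit the adjusted p was also 0.0502 for Art3 and 0.0508 for Cmya5 (differences 1.22 and 1.37). Car3 lost its call without any 1 of 9 arrays (vehicle replicates 2 and 4, 0.1 mg/kg replicates 2, 3 and 4, 15 mg/kg replicates 1, 3 and 4, and 50 mg/kg replicate 4), with an adjusted p of up to 0.319. The whole count fell from 234 to 105 without 15 mg/kg replicate 3 and to 125 without vehicle replicate 2. It was 56 without the 3 arrays that carried pancreas transcripts (15 mg/kg replicates 3 and 5 and 0.1 mg/kg replicate 2), a choice made after seeing the data. It was 131 with the threshold at 1.5 log2 units, which moves 15 mg/kg replicate 5 into the high class, and 32 among probe sets with a mean of at least 6.

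Lower genes were few and their changes small. Mcoln2, a lysosomal channel, fell by 0.54 (limma adjusted p = 0.045), Hic2 by 0.33 (0.0342), Srgap2 by 0.27 (0.0414) and Ythdf1, on a dim probe set, by 0.26 (0.00825). The brightest Ythdf1 probe set differed by 0.04. The calls of Mcoln2, Hic2 and Srgap2 were lost in 15, 12 and 16 of the 20 leave-one-out fits, the adjusted p reaching 0.145, 0.173 and 0.264, and that of Ythdf1 without 15 mg/kg replicate 3 (0.091).

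Tissues that border or attach to muscle held single calls. In the tendon and fascia list 1 of 9 genes was called, against 0.992% of all genes called higher. That gene was Scx, the tendon transcription factor, at 4.84 to 5.23 on the low arrays and 5.10 to 6.06 on the high arrays, a difference of 0.45 (SE 0.10, limma adjusted p = 0.0295). It lost its call without vehicle replicate 2 (0.202) or 15 mg/kg replicate 3 (0.234), and without the low arrays 0.1 mg/kg replicate 2 (0.0655) or replicate 3 (0.105). Its difference in these fits was 0.41 to 0.45. At an unadjusted p under 0.05, 5 of the 9 tendon genes were higher, against 6.38% of all genes in either direction. Tnmd, tenomodulin, the membrane protein of tendon cells, was at 3.53 to 4.13 on all 12 low arrays. On the high arrays it was at 6.55 on 50 mg/kg replicate 4, 5.83 on vehicle replicate 2, 5.73 on 0.1 mg/kg replicate 4, 5.67 on 0.1 mg/kg replicate 1 and 4.51 on 15 mg/kg replicate 3, and at 4.04, 3.95 and 3.70 on the other 3. Its mean difference of 1.21 did not pass the test (adjusted p = 0.162).

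Of 24 fibroblast and matrix genes, limma called 0, and their median difference was 0.17. At an unadjusted p under 0.05, 9 of the 24 (37.5%) were higher, against 6.38% of all genes in either direction. Mfap5, a microfibril protein, had the largest difference of this list, 2.04 (SE 0.50, limma adjusted p = 0.0742). It was at 6.22 to 8.42 on all 8 high arrays. On the low arrays it was at 7.15 on 15 mg/kg replicate 5, 7.08 on 0.1 mg/kg replicate 2, 6.17 on 0.1 mg/kg replicate 3 and 5.64 on 15 mg/kg replicate 1, and at 3.72 to 4.53 on the other 8. Postn, a matricellular protein of connective tissue, and Col1a1, the main fibrillar collagen, were highest on 50 mg/kg replicate 4, at 10.37 and 10.61, and at up to 9.78 and 10.03 on the low arrays. That array held 6 of the 24 matrix genes over 1.5 log2 units above the low-array median.

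Of 13 cartilage genes only Col11a1, a minor fibrillar collagen, was called (difference 0.70, SE 0.16, limma adjusted p = 0.0419), and Col2a1, the collagen that defines cartilage, stayed at 4.06 to 4.44 on all 20 arrays. At an unadjusted p under 0.05 there were 3 of the 13 (23.1%, 2 of them higher), against 6.38% of all genes. Of 14 bone genes 0 were called by limma (4 at an unadjusted p under 0.05, 28.6%, 3 of them higher). Of 17 nerve and Schwann cell genes only Pmp22, a myelin protein also made by other cells, was called (0.48, SE 0.11, adjusted p = 0.0389). These calls of Col11a1 and Pmp22 were lost in 14 and 13 of the 20 leave-one-out fits, the adjusted p reaching 0.342 and 0.269.

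The heart list held 2 calls among 12 genes, against 0.992% of all genes called higher. Both called genes are made by embryonic skeletal muscle as well as by heart. At an unadjusted p under 0.05, 3 of the 12 (25%) were higher, against 6.38% of all genes in either direction. The one of these without a call was Tnni3, the cardiac troponin I (difference 0.43, SE 0.14, limma adjusted p = 0.379). Myl4, the embryonic and atrial light chain, was at 3.69 to 4.59 on the low arrays and 4.29 to 6.99 on the high arrays, a difference of 1.5 (SE 0.27, limma adjusted p = 0.00563). Tnnt2, the cardiac troponin T, ran from 3.63 to 4.47 and from 3.98 to 5.28, a difference of 0.94 (SE 0.18, adjusted p = 0.00942). Its other, dimmer probe set differed by -0.007. Myl4 and Tnnt2 lost their calls without vehicle replicate 2 (0.0559 and 0.107, differences 1.39 and 0.81). They also lost them without 15 mg/kg replicate 3 (0.0508 and 0.0699, differences 1.45 and 0.91). Myl7, the regulatory light chain of the atrium, stayed at 3.35 to 3.94 on all 20 arrays. The highest Myl4 value was again on 50 mg/kg replicate 1, the array with the highest Myh3. The smooth muscle list shares Des with the muscle lists, and of its other 11 genes limma called 0 (0 at an unadjusted p under 0.05).

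The high arrays differed among themselves in which other tissue they carried. On 50 mg/kg replicate 1, 9 of 19 genes of skin and squamous epithelium were over 1.5 log2 units above the low-array median. Krt13 and Krt15, keratins of stratified epithelium, were at 7.06 and 7.60 there, and Sprr1a, Sprr3 and Krtdap, made in differentiating squamous cells, at 7.63, 8.0 and 7.17. The same array had the highest smooth muscle values, with Actg2, the gamma actin of gut smooth muscle, at 7.07 and Myh11, smooth muscle myosin, at 8.16. On the other 19 arrays Actg2 reached 5.30 and Myh11 7.02. Sprr3 and Actg2 were named after their values were seen.

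A second squamous signal was on 15 mg/kg replicate 3, where 4 of the 19 genes passed that level. Krt13 was at 5.82, Krt15 at 5.77, Sprr1a at 6.27 and Sprr3 at 6.33. On the other 18 arrays Krt13 was at 3.12 to 3.47 and Krt15 at 3.75 to 4.22. Between high and low arrays limma called 0 of the 19 genes (2 at an unadjusted p under 0.05), with a median difference of 0.25. Krt10, a keratin of the outer skin layers, was bright on all 20 arrays at 6.32 to 9.28 and did not follow the others.

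Exocrine pancreas transcripts were high on 3 arrays, of which only 1 was a high array. Ctrb1, chymotrypsinogen, was at 9.31 on 15 mg/kg replicate 5, 9.24 on 15 mg/kg replicate 3 and 8.52 on 0.1 mg/kg replicate 2, and at 3.41 to 4.49 on the other 17. Pnliprp1, a pancreatic lipase relative, was at 9.16, 9.06 and 8.60 on the same 3 arrays. Cpa1, carboxypeptidase A, was at 7.13, 7.12 and 7.08, and Prss1, trypsinogen, at 5.44, 5.68 and 6.51. On these 3 arrays 12, 11 and 12 of 27 pancreas genes were over 1.5 log2 units above the low-array median, and on the other 17 none was, apart from 1 gene on vehicle replicate 4. Cela1, an elastase by name, was at 10.10 to 11.06 on all 20 arrays. Of the 27, limma called 0 between high and low arrays, with 0 at an unadjusted p under 0.05 and a median difference of -0.01. Ctrb1 and Pnliprp1 were named after their values were seen.

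Islet and brown fat transcripts were on some of these same arrays. On 15 mg/kg replicate 3, Ins1 and Ins2, the rat insulins, were at 8.91 and 8.82 and Gcg, glucagon, at 5.78. Ins2 was at 6.18 on 15 mg/kg replicate 5 and at 4.31 to 5.13 on the other 18 arrays. Ucp1, the uncoupling protein that defines brown fat, was at 8.22 on 15 mg/kg replicate 3, 8.01 on 15 mg/kg replicate 5 and 5.60 on 50 mg/kg replicate 4, and at up to 5.17 elsewhere. Cidea, a lipid droplet protein of brown fat, was at 7.77 on 15 mg/kg replicate 3 and 6.96 on 15 mg/kg replicate 5. Adipoq and Plin1, made by all fat cells, were at 5.13 and 5.03 on 15 mg/kg replicate 3, above the other 19 arrays. In the fat list only Car3 was called, 1 of 15, a gene that muscle and liver also make. At an unadjusted p under 0.05, 4 of the 15 (26.7%) were higher, against 6.38% of all genes in either direction.

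Lung surfactant protein was a further difference between arrays. Sftpc, the surfactant protein of alveolar type II cells, was at 6.36 on vehicle replicate 2 and 4.94 on 15 mg/kg replicate 3, and at 3.14 to 3.73 on the other 18. It was the only 1 of 9 lung genes over 1.5 log2 units above the low-array median on vehicle replicate 2.

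**Figure D4:**
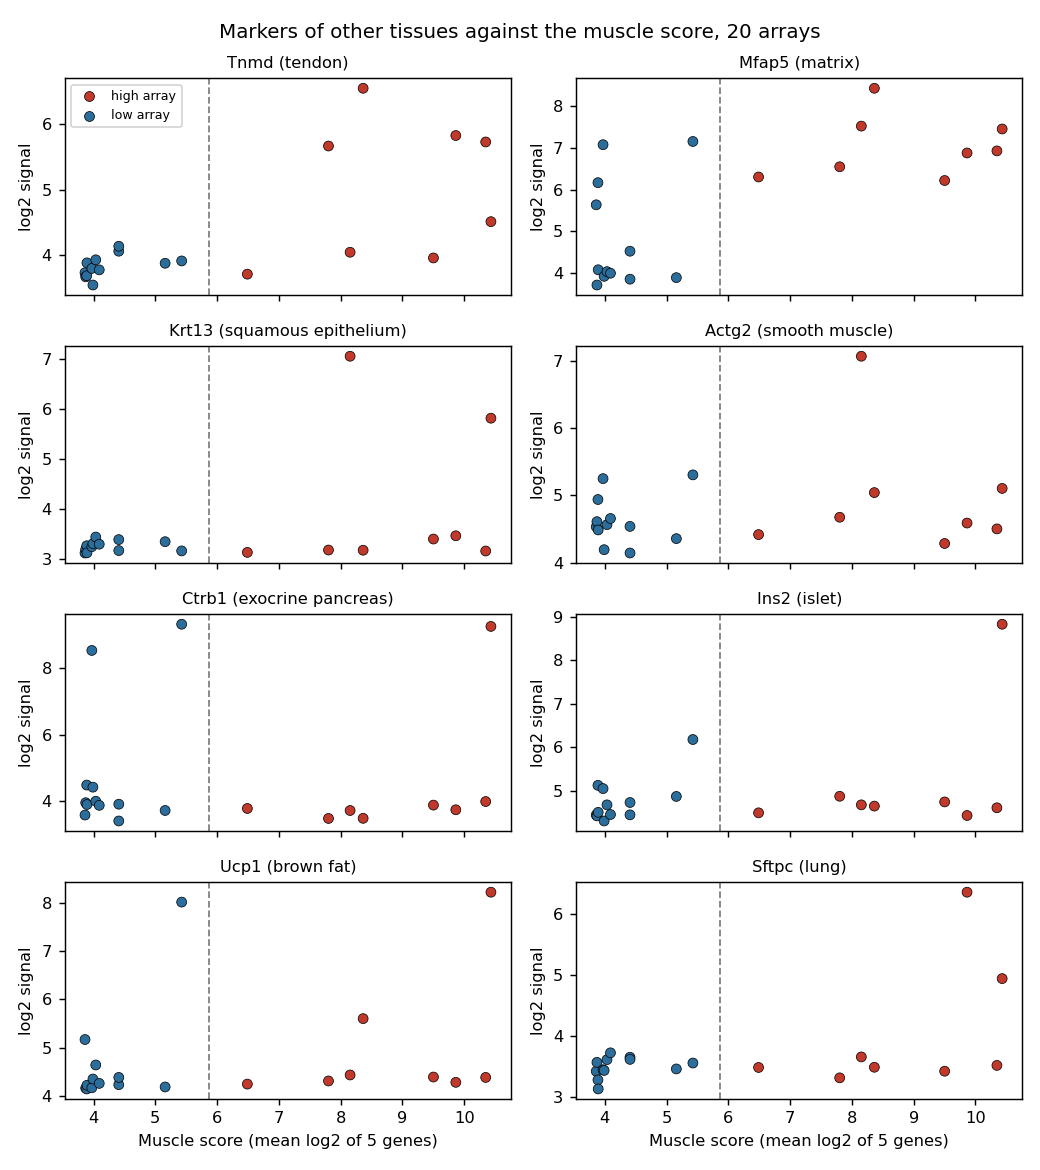
Log2 signal (vertical axes, each panel with its own range) of 8 marker genes of other tissues against the muscle score (horizontal axis) on the 20 arrays, high arrays in red and low arrays in blue. Ctrb1 is high on 3 arrays, of which 2 are low arrays, while Tnmd and Krt13 are high on high arrays alone.

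No list of a liver cell type held more than 1 call. Of 33 genes of mature hepatocytes, limma called 0 (1 at an unadjusted p under 0.05), and the median difference was 0.00. It called 0 of 16 endothelial genes (1 at an unadjusted p under 0.05) and 0 of 9 Kupffer cell genes (2). It called 0, with 0 at an unadjusted p under 0.05, for bile duct (9 genes), neutrophils (6), erythroid cells (16), megakaryocytes and mast cells (14) and mesothelium (8). The 6 neutrophil genes differed by -0.45 to -0.19. Cdkn1c, an imprinted cell cycle inhibitor, was the only call among 12 fetal liver genes (0.74, SE 0.17, limma adjusted p = 0.0461), and its call was lost in 14 of the 20 leave-one-out fits, the adjusted p reaching 0.353. Among genes of handling and early response Hspb1 was the only call of 19. The measured signal is of bulk tissue, so fewer cells of a type and less RNA per cell cannot be told apart.

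Lists for other organs and for body position held no call by limma. The counts at an unadjusted p under 0.05 were 1 of 22 for stomach and intestine epithelium, 0 of 14 for kidney and adrenal, 0 of 12 for endocrine pancreas, 2 of 9 for lymphoid tissue, 1 of 9 for lung and 2 of 24 for Hox and related position genes. Ribosomal protein genes (0 of 13) and genes of hypoxia and glycolysis (1 of 14) gave no call either.

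The last question was whether the split bears on the study's own comparison of 50 mg/kg with vehicle, in which the vehicle group holds 1 high array and the 50 mg/kg group 3. With dose groups alone 290 probe sets were called (0.934%) and with the split as a covariate 221 (0.712%), 141 higher and 80 lower. Both fits called 192, which is 66.2% of the first list and 86.9% of the second. Of the 290 probe sets, 0 were also called between high and low arrays, and of the 221, 1 was. Why the count fell was not tested. Cyp1a1, a target of the aryl hydrocarbon receptor, rose by 3.51 log2 units with the covariate and 3.46 without it (SE 0.23 and 0.22). Cyp2c7 rose by 3.04 and 3.21 (SE 0.35 and 0.34), and Alas1, the first enzyme of haem synthesis, by 1.49 and 1.52 (SE 0.15 in both fits). Each of these 3 passed in both fits, with limma adjusted p of at most 0.000153. Between high and low arrays, limma called 0 of 16 genes of the CAR, PXR and AhR response (1 at an unadjusted p under 0.05).

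The low arrays alone, 4 vehicle and 2 at 50 mg/kg, gave 3 calls for that comparison. The count of 221 fell to 83 without 50 mg/kg replicate 4 and to 94 without 50 mg/kg replicate 5, and lay between 111 and 144 without any 1 of vehicle replicates 2, 3 and 4, 50 mg/kg replicate 3 and 15 mg/kg replicate 3.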

How the data were processed

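Messenger RNA was measured in 20 rat liver samples, 5 per dose group, with 100 ng of total RNA amplified per the labels' protocols. The deposited values are log2 signals that the authors summarized with RMA, per the submitters' processing notes, and no version or settings of it are stated there. The method equalizes array distributions and compresses the dimmest and brightest signals. Detection calls were not used here. Array number limits the precision.

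Groups and replicate numbers came from sample titles. Of 31099 probe sets, 57 controls were left out, and all 31042 others were tested. The platform annotation from GEO names 1 gene for 20826, several for 436 and none here for 9780. They stand for 14217 genes, each read in the lists from its brightest single-gene probe set, and 20758 probe sets matched a RefSeq gene ID (GRCr8).

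High and low arrays were compared by a linear model with dose group as covariate (limma 3.58.1, functions lmFit and eBayes, under R 4.3.3). P-values are two-sided and Benjamini-Hochberg adjusted over all probe sets. Differences are fitted log2 values, and levels are as deposited. Dose counts used an exact permutation test. The code was tested on simulated data before use.

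The split, the 38 gene lists (including the score genes) and the markers were chosen with earlier results of these data known. Named genes are the 5 score genes, the 20 largest higher and 15 largest lower calls outside the muscle lists (4 genes were lower), up to 6 members per described list with the smallest p (muscle lists: the largest difference), the 10 largest differences, and index genes. For the calls outside the muscle lists, each gene was read from its called probe set with the largest difference. Genes beyond these choices are marked in the text. Alternatives were blocks for the replicate number and for the leading digit of the description number, other thresholds or the score itself, normalization, filters, weights, 1 probe set per gene, and each array left out. Figures used matplotlib 3.10.9.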

Additional observations from a re-analysis of the deposited data

Results flagged for a closer look

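A search for arrays far from the others of their group covered 135 groups of 5 or 8 arrays and marked 20. Chance marks about 1 in 20 groups that are independent and chosen beforehand. These groups include the muscle score, which made the split, and genes named after their values were seen. Genes of 1 tissue are also not independent of each other. The 20 of 135 can therefore not be set against that rate. Among the dose groups, the muscle score of 10.43 on 15 mg/kg replicate 3 stood apart from the next value in its group, 5.43, and the score of 9.86 on vehicle replicate 2 from 4.41.

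Most of the others were on 15 mg/kg replicate 3, compared with the other 7 high arrays. Pancreas transcripts stood apart there: Ctrb1 at 9.24 against a next value of 3.99, Pnliprp1 at 9.06 against 4.13, Cpa1 at 7.12 against 4.38 and Prss1 at 5.68 against 3.36, with a list mean of 6.07 against 4.51. Islet transcripts did so too, with Ins1 at 8.91 against 5.92, Ins2 at 8.82 against 4.88 and Gcg at 5.78 against 3.80, and a list mean of 5.87 against 4.99. For fat, Ucp1 was at 8.22 against 5.60, Cidea at 7.77 against 6.14 and Plin1 at 5.03 against 4.15, and the list mean was 6.98 against 6.49.

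On 50 mg/kg replicate 1, Actg2 was at 7.07 against 5.10, Myh11 at 8.16 against 6.44 and Krtdap at 7.17 against 5.44. On 50 mg/kg replicate 4, Col1a1 was at 10.61 against 9.73. On vehicle replicate 2, the mean of the lung list was 4.73 against 4.45. Why these arrays differ was not tested.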

How the results depend on the processing

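The count of 234 probe sets between high and low arrays fell to 131 with the threshold at 1.5 log2 units, to 149 with 1 probe set per gene (fewer probe sets tested), to 32 among probe sets with a mean of at least 6, where dim muscle genes are left out, and to 56 without the 3 arrays with exocrine pancreas transcripts. That last choice was made after seeing the data. The planned one, leaving out arrays with a pancreas list mean over 2 log2 units above the lowest array, left out no array and was not run. With 1 array left out at a time the count lay between 105 and 271. The count of 221 for 50 mg/kg against vehicle rose to 384 with array weights, and fell to 3 on the low arrays alone and to 104 without the 3 arrays with pancreas transcripts, and lay between 83 and 218 with 1 array left out. The p for high arrays per dose group was 0.224 to 0.524 with 1 array left out. The causes were not tested beyond what leaving out samples or probe sets does by itself. No difference of a gene followed through the alternative runs changed sign. Other differences given in the text, such as those of Uty, Eif2s3y and Tpm1, were not followed. The labels share replicate numbers between groups without stating a pairing, so the numbers were not taken as pairs. The correlations of same-numbered arrays lay between -0.362 and 0.288. Those of differently numbered arrays were not computed, so this range cannot decide whether a pairing exists. With the replicate number as a block the counts were 204 and 180. Dim signals near background limit what can be seen of low muscle content.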
